A study of Mus musculus with 140 samples.

Results

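The Kruppel-like factors are transcription factors that bind GC-rich and CACCC-type DNA through C-terminal zinc fingers. Of the 17 Klf genes in the deposited count table, 8 were chosen by name, with earlier results of these data known. They are Klf2, Klf3, Klf4, Klf5, Klf6, Klf10, Klf13 and Klf15, out of 34255 genes in all. They were followed through 140 Lexogen QuantSeq libraries, which count the 3′ ends of messenger RNAs, from the kidneys of 28 male wild-type (WT) C57BL6/OlaHsd mice. From each mouse 4 compartments were cut by laser microdissection, namely arterioles, peritubular capillaries, post-capillary venules and glomeruli. A whole-kidney sample was taken without microdissection. Each of 7 groups held 4 mice: CLP (cecal ligation and puncture, an operation that leads to abdominal sepsis) at 4, 24 and 72 h, sham operation at 4, 24 and 72 h, and healthy controls at 0 h. Age and care around the operation are not given in the sources used here. The series set out to compare how kidney vessels respond to sepsis with acute kidney injury.

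In endothelium, Klf2 and Klf4 are induced by laminar blood flow through the kinase chain Map3k3, Map2k5 and Mapk7 and the MEF2 factors, and they raise anticoagulant and vasodilator genes and lower leukocyte adhesion genes. Klf4 is also known from podocytes and from epithelial differentiation. Klf6 is an injury-responsive factor, and Klf10 is an early target of transforming growth factor beta. Klf15 is a glucocorticoid target that drives amino acid breakdown in liver and muscle and protects podocytes. Klf13 is known as a late activator of a chemokine gene in T cells, Klf3 is mainly a repressor, and Klf5 is an epithelial and smooth muscle factor found in the collecting duct.

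Library totals ran from 4.24 M to 18.3 M counts. The microdissected libraries of 24 and 72 h detected fewer genes than those of healthy and 4 h mice, with a median of 6982 against 12632.5 in peritubular capillaries and 8081 against 12611.5 in arterioles, while in whole kidney the medians were 18311 and 19396.5. In peritubular capillaries at 72 h, 2949 to 5595 genes were detected per library after CLP, against 7137 to 9816 after sham operation. Proximal tubule markers were high in peritubular capillary samples of every group, with group medians of their summed level from 26590 CPM (CLP at 72 h) to 88850 CPM (sham at 4 h). Levels below are CPM, counts divided by the library's scaled total in M, with scaling within each compartment.

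The 3 members that the results turn on lie at chr8:72319033-72321656 on the plus strand (Klf2, ENSMUSG00000055148), chr13:5861482-5870394 on the plus strand (Klf6, ENSMUSG00000000078) and chr7:63886351-63938915 on the minus strand (Klf13, ENSMUSG00000052040) of GRCm38. The other members lie on chromosomes 5 (Klf3), 4 (Klf4), 14 (Klf5), 15 (Klf10) and 6 (Klf15), so that no pair of neighbours is among them. The RefSeq promoter table (GRCm38.p6) held 6 of the 8 members. Distances before a start count from the RefSeq start, which for Klf2 and Klf6 is not the gene start given above. The 220 bases from 250 to 31 before the annotated start are shown for these 3, because their transcripts passed the test in sepsis, with capitals marking matches, on either strand, to the box bound by MEF2 (CTA, any 4 bases, TAG), TGACG (the core of the cyclic AMP response element), CACGTG (E box), CCAAT and a glucocorticoid response element (AG, any base, ACA, any 3 bases, TGT, any base, CT).
Klf2, chr8:72318812-72319031, plus strand: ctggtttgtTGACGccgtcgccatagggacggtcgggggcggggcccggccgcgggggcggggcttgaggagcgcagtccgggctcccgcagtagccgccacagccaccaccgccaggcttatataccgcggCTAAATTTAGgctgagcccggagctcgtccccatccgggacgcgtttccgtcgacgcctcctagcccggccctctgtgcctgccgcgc
Klf6, chr13:5861239-5861458, plus strand: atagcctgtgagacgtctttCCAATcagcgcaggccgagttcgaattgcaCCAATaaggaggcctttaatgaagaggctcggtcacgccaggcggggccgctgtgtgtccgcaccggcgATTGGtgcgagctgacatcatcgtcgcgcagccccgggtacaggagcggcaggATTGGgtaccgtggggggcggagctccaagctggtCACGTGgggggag
Klf13, chr7:63938946-63939165, minus strand: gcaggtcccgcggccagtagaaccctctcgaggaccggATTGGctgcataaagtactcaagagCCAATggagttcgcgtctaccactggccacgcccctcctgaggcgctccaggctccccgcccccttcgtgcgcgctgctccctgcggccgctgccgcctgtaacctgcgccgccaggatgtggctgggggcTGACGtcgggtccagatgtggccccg

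Among the 6 promoters the MEF2 box occurred in Klf2 alone, 118 bases before the start, and 2.83% of all 32851 promoter windows of this length held it. CCAAT occurred at 4 places in the Klf6 window, at 2 in Klf13 and at 1 in Klf15, against 31% of all windows with a match. TGACG was found in Klf2, Klf4, Klf13 and Klf15 (14.8% of all windows), and the E box in Klf4, Klf6 and Klf15 (5.01%). The glucocorticoid element occurred in none of the 6 (0.0609% of all windows), and GGGCGG, a GC box left in lower case, occurred in all 6 (28.5%). No match overlapped another in the 3 windows shown. These are matches of letters only, and the motifs were picked after the letters had been seen.

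In healthy kidney Klf2 and Klf13 were higher in arterioles, and Klf2 was lower in peritubular capillaries, each against the mean of the 3 other compartments. No member passed between arterioles and glomeruli. For these comparisons the 16 microdissected libraries of the 4 healthy mice were scaled together, and each mouse was kept as a block. Klf2 stood at 338, 380.3, 498 and 199 CPM in arterioles of mice 1 to 4, at 126, 223, 126 and 139 CPM in glomeruli, at 58.6, 78.4, 79.0 and 46.8 CPM in post-capillary venules and at 13.9, 12.6, 4.75 and 2.06 CPM in peritubular capillaries. The peritubular capillaries lay below and the venules next above without overlap, while the lowest arteriole library fell within the range of glomeruli.

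Against the mean of the 3 other compartments, Klf2 was higher in arterioles (log2 fold change 3.04 ± 0.53 SE, adjusted p = 2.61e-05) and lower in peritubular capillaries (-4.36 ± 0.78, adjusted p = 4.94e-05) by edgeR's quasi-likelihood test with Benjamini-Hochberg adjustment over 12179 genes. In glomeruli its log2 fold change was 1.497 ± 0.55 (adjusted p = 0.126) and in venules -0.17 (adjusted p = 0.98). Between neighbours in this order, arterioles and glomeruli did not pass (1.16 ± 0.73, adjusted p = 0.466). Glomeruli and venules did not pass either (1.25 ± 0.73, adjusted p = 0.548), although every glomerular value lay above every venule value. Peritubular capillaries stood below venules (-3.14 ± 0.79, adjusted p = 0.038). That last call depended on each mouse, since adjusted p was 0.0532, 0.0855, 0.462 and 0.104 without mouse 1, 2, 3 and 4. Arterioles exceeded venules by 2.41 ± 0.75 (adjusted p = 0.0499), a call lost without mouse 1 (0.152), 2 (0.147) or 3 (0.238). The gaps from peritubular capillaries to arterioles (5.55 ± 0.87, adjusted p = 2.99e-06) and to glomeruli (4.39 ± 0.83, adjusted p = 0.000162) kept their calls without any of the 4 mice.

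Klf13 was higher in arterioles as well, against the mean of the 3 others, although in mice 1 and 3 the glomeruli had the higher value. It stood at 198, 486, 246 and 627 CPM in arterioles of mice 1 to 4, at 206, 127, 322 and 137 CPM in glomeruli, at 57.6, 112, 21.7 and 236 CPM in venules and at 53.8, 37.7, 19.5 and 166 CPM in peritubular capillaries. Mouse 4 had the highest value in 3 of the 4 compartments, and the compartments overlapped. Its log2 fold change in arterioles was 1.80 ± 0.50 (adjusted p = 0.0126), and 1.55 (adjusted p = 0.0935) without mouse 2. In peritubular capillaries it was -1.82 ± 0.61 (adjusted p = 0.0584).

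Klf3, Klf4 and Klf6 had the same order of means without passing the test against the 3 other compartments. Klf3 averaged 168 ± 84.7 CPM in arterioles, 120 ± 58.0 in glomeruli, 69.0 ± 49.5 in venules and 25.6 ± 19.8 in peritubular capillaries (SD, n = 4). Klf4 averaged 110 ± 76.7, 39.8 ± 9.63, 19.6 ± 18.4 and 9.58 ± 9.88 CPM in the same order of compartments, and Klf6 162.6 ± 101, 70.5 ± 44.0, 46.8 ± 12.5 and 20.6 ± 13.04 CPM. For arterioles their adjusted p-values were 0.115 (Klf3), 0.161 (Klf4) and 0.117 (Klf6), and Klf4 passed without mouse 4 (0.0491). Between arterioles and peritubular capillaries alone, Klf3 also passed (log2 fold change 3.14 ± 0.99, adjusted p = 0.0309), and 3 of 8 members did in all, where 9.23% of all genes did (5.06% as higher). Klf2 was the only member to pass between arterioles and venules (4.2% of all genes), glomeruli and peritubular capillaries (4.89%) and peritubular capillaries and venules (0.583%), and no member passed between arterioles and glomeruli (2.0%) or glomeruli and venules (1.55%). Klf10 had its highest mean in venules, 48.4 ± 40.1 CPM, with 1 venule library at 0.107 CPM and the others at 40.8 to 97.2 CPM. Klf5 had no more than 3 counts in any peritubular capillary library of a healthy mouse.

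Of the 8 members, 2 passed in arterioles, both higher, where 7.32% of all genes tested passed (4.93% as higher). In peritubular capillaries 1 of 8 passed, lower, against 6.13% (2.61% as lower), and 0 of 8 passed in glomeruli (4.18% of all genes) or venules (0.591%). The median log2 fold change of the members was 2.24 in arterioles and -2.05 in peritubular capillaries, against -0.27 and -0.04 over all genes tested. Members were above 0 in 7 of 8 cases in arterioles and below 0 in 8 of 8 in peritubular capillaries. Cell type markers moved with the compartments. The 11 endothelial markers summed to a median of 3591 CPM in arterioles, 5512 in glomeruli, 1369 in venules and 720.0 in peritubular capillaries, and 3 of the 11 passed as lower in peritubular capillaries, while the 8 proximal tubule markers summed to 8725, 5641, 23740 and 81460 CPM and 8 of 8 passed as higher there. Smooth muscle and renin cell markers summed to 17110 CPM in arterioles and podocyte markers to 6962 CPM in glomeruli, so the labels of both match their defining genes. Fibroblast markers summed to 9431 CPM in arterioles, 545 in glomeruli, 3536 in venules and 384 in peritubular capillaries. Of these 6 markers, 5 passed as higher in arterioles and 5 as lower in peritubular capillaries. The part of this cell mixture in the Klf differences was not tested, and in bulk samples fewer cells of a type and less RNA per cell cannot be told apart.

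**Figure D1:**
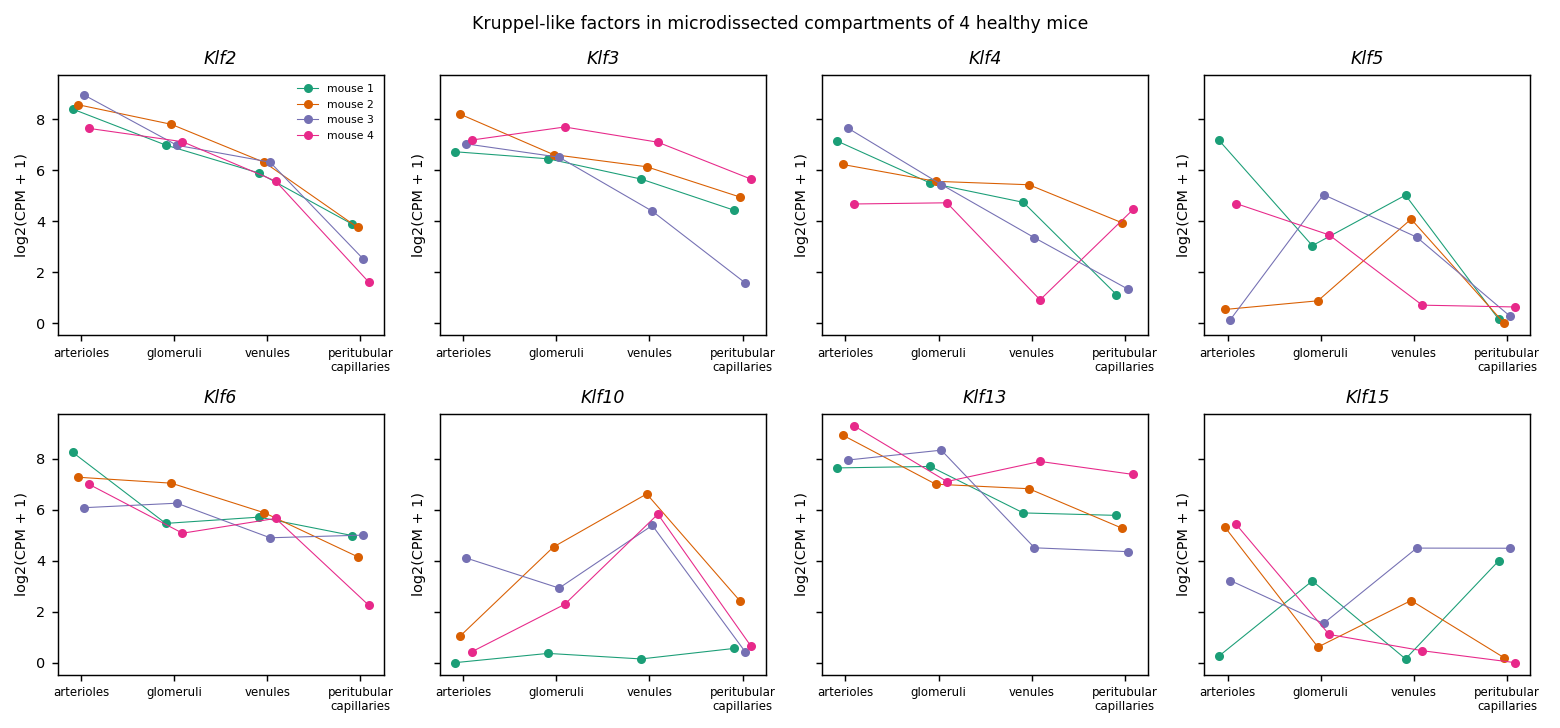
Level of each member in the 4 microdissected compartments of the 4 healthy mice. The y axis is log2(CPM + 1), points are libraries and lines join the libraries of a mouse; Klf2 lies at 199 to 498 CPM in arterioles and at 2.06 to 13.9 CPM in peritubular capillaries.

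Genes around Klf2 and Klf4 in endothelium followed partly the same order. Of 13 genes upstream of them, 2 passed in arterioles, both higher: Heg1, an endothelial receptor of the cerebral cavernous malformation complex (log2 fold change 3.87 ± 0.39, adjusted p = 8.76e-12), and Mef2c (3.17 ± 0.52, adjusted p = 6.75e-06). Of 10 genes that Klf2 or Klf4 activates, 3 were higher in arterioles, Heg1 again, the nitric oxide synthase Nos3 (442 ± 41.6 CPM, n = 4, against means of 11.4 to 24.4 in the 3 other compartments) and the prostaglandin transporter Slco2a1 (3.27 ± 0.55, adjusted p = 1.26e-05). The prostaglandin synthase Ptgds was listed at 0 in arterioles and passed as lower. The same list held 3 lower genes in peritubular capillaries, Heg1, Nos3 and Slco2a1, and 1 higher, the water channel Aqp1, which proximal tubule also makes. In glomeruli Plat, the tissue plasminogen activator, was higher at 193 ± 160 CPM. Slco2a1 was higher there too (2.13 ± 0.57, adjusted p = 0.0147, edgeR), and Aqp1 was lower (-2.44 ± 0.46, adjusted p = 0.000277). Of 7 tested genes that Klf2 or Klf4 represses, only the endothelin gene Edn1 passed in arterioles, and it was higher (4.91 ± 1.45, adjusted p = 0.0218). In peritubular capillaries Edn1 was lower (-5.97 ± 1.82, adjusted p = 0.0332, edgeR). The amino acid breakdown genes linked to Klf15 went the other way, with Prodh and Aass of 9 tested lower in arterioles and higher in peritubular capillaries. These genes were named after their values had been seen.

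In whole kidney, Klf6 and Klf13 were higher in CLP mice than in sham mice at 4 h, Klf6 at 24 h and Klf2 at 72 h, and no member passed as lower. The members' levels were tested against sham operation at the same time, in a fit over the 28 whole-kidney libraries and 14936 genes. Klf13 had 218, 156, 172 and 141 CPM in the 4 CLP mice at 4 h, against 109, 102, 85.7 and 129 CPM at 4 h after sham operation. Every CLP value lay above every sham value. The log2 fold change was 0.69 ± 0.18 (adjusted p = 0.031, edgeR). It no longer passed without sham replicate 1 (adjusted p = 0.0679), 2 (0.10) or 3 (0.163) and without CLP replicate 1 (0.198) or 3 (0.0662). At 24 h Klf13 averaged 85.1 ± 22.2 CPM in CLP mice and 63.8 ± 6.03 CPM in sham mice (adjusted p = 0.237), and at 72 h 73.2 ± 13.2 and 64.0 ± 7.27 CPM (adjusted p = 0.755; SD, n = 4 each).

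Klf6 had 126.7, 50.03, 72.96 and 80.1 CPM in CLP mice at 4 h, against 41.0, 46.8, 48.5 and 61.05 CPM in sham mice. CLP replicate 1 was the highest and CLP replicate 2 lay among the sham values. The log2 fold change was 0.74 ± 0.20 (adjusted p = 0.0374), and with CLP replicate 1 left out adjusted p was 0.397. It was likewise lost without CLP replicate 3 (0.0516) or 4 (0.0608) and without sham replicate 1 (0.15), 2 (0.13) or 3 (0.107), and also when the 8 libraries were fitted alone (0.241). At 24 h the levels were 34.2, 24.5, 30.7 and 46.7 CPM after CLP, against 22.2, 19.2, 20.1 and 20.5 CPM after sham operation. No CLP value fell to the sham range. The log2 fold change was 0.73 ± 0.21 (adjusted p = 0.0289). It failed without sham replicate 2 (0.0815), 3 (0.0759) or 4 (0.0713), without CLP replicate 4 (0.161) and in the 8 libraries alone (0.0942). At 72 h Klf6 stood at 40.8, 28.2, 25.98 and 32.1 CPM in CLP mice, against 25.4, 17.9, 22.5 and 20.4 CPM in sham mice, again without overlap, and the log2 fold change of 0.56 ± 0.21 did not pass (adjusted p = 0.161). Healthy mice averaged 31.7 ± 1.75 CPM of Klf6. The CLP means were near this, at 34.0 ± 9.4 CPM at 24 h and 31.8 ± 6.54 CPM at 72 h. The sham means lay below it, at 20.5 ± 1.28 and 21.5 ± 3.18 CPM (SD, n = 4 each). CLP was not tested against healthy mice.

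Klf2 had 37.9, 54.7, 41.9 and 40.7 CPM in CLP mice at 72 h, against 21.9, 28.3, 27.5 and 24.1 CPM in sham mice. All 4 CLP values exceeded all 4 sham values. The log2 fold change was 0.79 ± 0.17 (adjusted p = 0.00325), and it passed in each of 8 fits that left out 1 library (adjusted p 0.0042 to 0.037) and under each of 6 other settings (0.000753 to 0.00949). At 4 h Klf2 averaged 49.7 ± 7.92 CPM in CLP mice and 48.6 ± 8.80 CPM in sham mice (log2 fold change 0.03 ± 0.16, adjusted p = 0.995). At 24 h the means were 42.5 ± 4.26 and 34.9 ± 7.90 CPM (0.29 ± 0.17, adjusted p = 0.427). The CLP libraries of the 3 times all lay between 37.9 and 58.7 CPM, and the sham mean was 25.5 ± 2.97 CPM at 72 h, near the 28.8 ± 5.03 CPM of healthy mice.

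**Figure D2:**
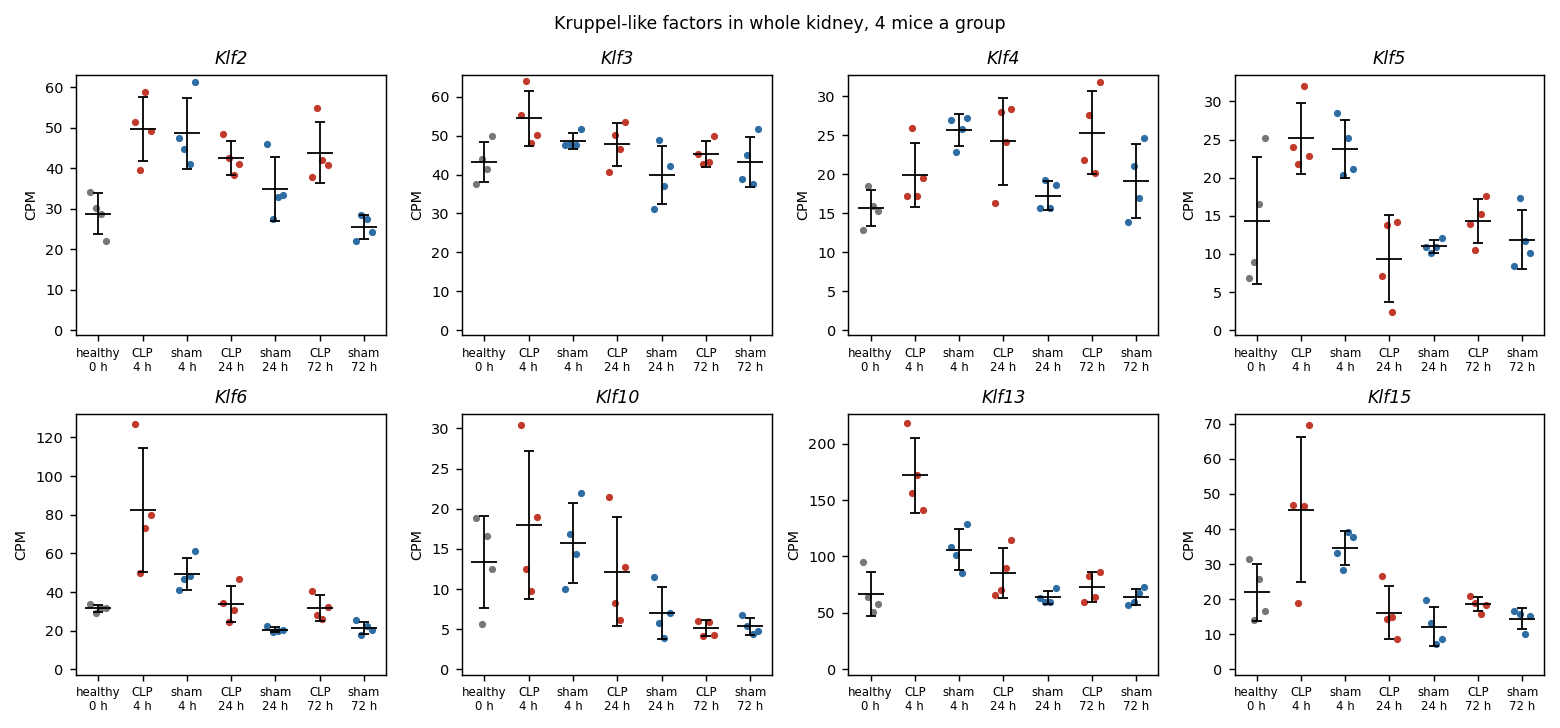
Whole-kidney level of each member in CPM, by group. Points are mice and bars the mean with SD over 4 mice; CLP is left of sham at each time, and Klf2 at 72 h is at 37.9 to 54.7 CPM in CLP mice and at 21.9 to 28.3 CPM in sham mice.

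The other members did not pass at any time. Klf4 was on average lower in CLP mice at 4 h (19.9 ± 4.11 CPM, against 25.7 ± 2.01 in sham mice; log2 fold change -0.37 ± 0.19, adjusted p = 0.529) and higher at 24 h (24.2 ± 5.56 against 17.3 ± 1.89 CPM; 0.49 ± 0.19, adjusted p = 0.161) and 72 h (25.3 ± 5.37 against 19.1 ± 4.72 CPM; 0.41 ± 0.19, adjusted p = 0.332). Without CLP replicate 1 the 24 h change passed (adjusted p = 0.0357). Klf15 had log2 fold changes of 0.40, 0.41 and 0.36 at 4, 24 and 72 h, with adjusted p-values of 0.8288, 0.658 and 0.772, and at 4 h its CLP libraries spread from 19 to 69.7 CPM. Klf10 spread widely too, with 30.5, 12.6, 9.77 and 18.98 CPM in CLP mice at 4 h against 9.98, 16.8, 14.3 and 21.9 CPM in sham mice, and by 72 h it was at 4.15 to 6.05 CPM after CLP and 4.35 to 6.82 CPM after sham operation. Klf3 moved least, with group means from 39.9 to 54.5 CPM and log2 fold changes of 0.16, 0.26 and 0.06. Klf5 had log2 fold changes of 0.08, -0.21 and 0.27.

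Of 8 members, 2 passed at 4 h, 1 at 24 h and 1 at 72 h, all higher, where 2.24%, 5.28% and 3.89% of all genes passed (1.69%, 3.04% and 1.74% as higher). Values lay above sham without overlap for 1, 1 and 2 members, against 4.87%, 4.12% and 4.71% of all genes. The members' median log2 fold changes were 0.17, 0.41 and 0.32, against 0.00, 0.02 and 0.03 over all genes, and 7 of 8 were above 0 at each time. Whether the CLP change itself differed between times was tested for each member, and 0 of 8 passed, where 3.09% of all genes did. An unadjusted p under 0.05 was found for 2 members and for 2057 of 14936 genes. The smallest adjusted p-values were 0.106 for Klf4 and 0.151 for Klf2, and for Klf4 it was 0.0318 without CLP replicate 1 of 24 h. A Klf2 change limited to 72 h is therefore not shown.

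White blood cell markers moved with sepsis in the same libraries. The 7 neutrophil markers summed to 80.2 to 152, 84.7 to 146 and 226 to 448 CPM in CLP mice at 4, 24 and 72 h, against 8.13 to 25.0, 7.46 to 14.1 and 2.47 to 5.40 CPM in sham mice, and 4 of the 4 tested were higher each time. The 7 macrophage markers summed to 458 to 684 CPM in CLP mice at 72 h, against 167 to 225 CPM in sham mice, and 6 of 7 were higher. At 24 h they summed to 263 to 381 CPM in CLP mice, against 176 to 254 CPM in sham mice, with 5 of 7 higher, and at 4 h 0 of 7 passed. The 11 endothelial markers summed to 753 to 928 CPM in CLP mice at 72 h, against 692 to 762 CPM in sham mice, and 0 of 11 passed. At 4 h they summed to 651 to 720 CPM in CLP mice, against 718 to 773 CPM in sham mice, and 2 of 11 were lower. Proximal tubule markers summed to 24920 to 32140 CPM in CLP mice at 24 h, against 41880 to 49740 CPM in sham mice, and to 17570 to 22220 CPM at 72 h, against 46700 to 54760 CPM, with 4 of 8 passing as lower each time and 0 of 8 at 4 h. Fibroblast markers summed to 651 to 786 CPM in CLP mice at 24 h, against 419 to 574 CPM in sham mice. At 72 h they summed to 559 to 645 CPM, against 398 to 541 CPM, and at 4 h to 527 to 732 CPM, against 523 to 889 CPM. At 72 h podocyte markers summed to 245.1 to 307.5 CPM in CLP mice, against 183.7 to 244.6 CPM in sham mice. Smooth muscle and renin cell markers summed to 214 to 329.5 CPM, against 152 to 226 CPM. Erythrocyte and platelet markers were lower then, at 1116 to 1259 CPM, against 2080 to 3042 CPM. The part of these cell types in the Klf changes was not tested.

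**Figure D3:**
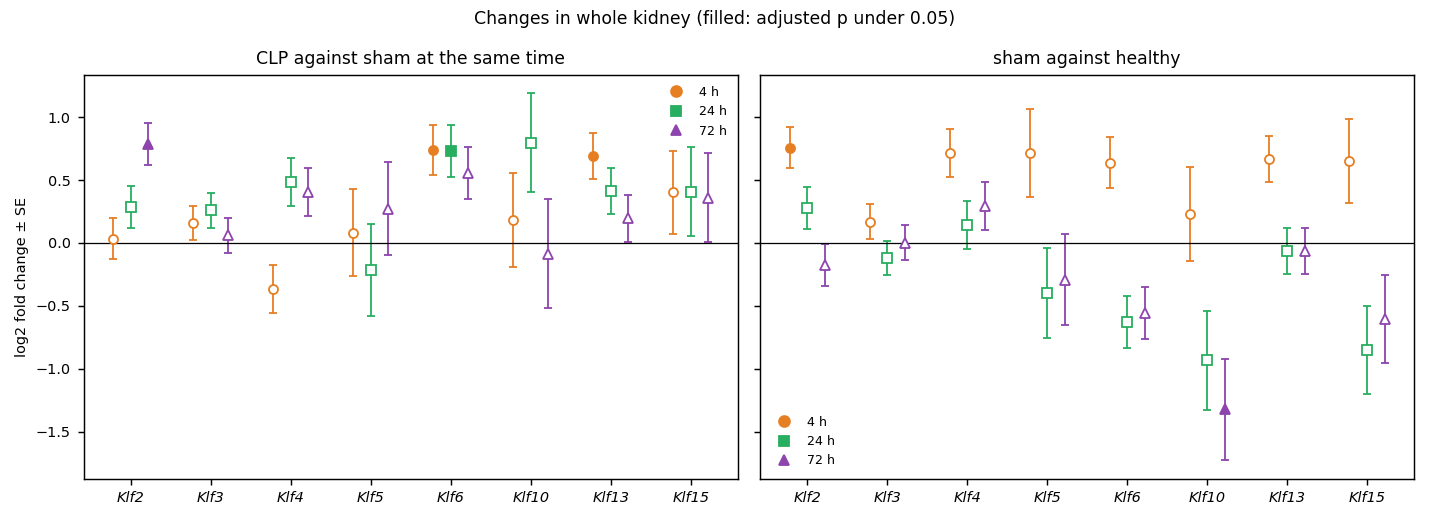
Log2 fold change of each member in whole kidney, with its SE, for CLP against sham (left) and sham against healthy (right) at 4, 24 and 72 h. Filled symbols passed the test: Klf6 and Klf13 at 4 h, Klf6 at 24 h and Klf2 at 72 h on the left, and Klf2 at 4 h and Klf10 at 72 h on the right.

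Genes known to respond to Klf2 and Klf4 in endothelium were examined in the same whole-kidney fit. Of 10 tested genes that they repress, 5 were higher after CLP at 4 h, among them Cxcl1, a neutrophil chemokine (87.2 ± 54.6 CPM in CLP mice against 2.83 ± 0.67 in sham mice; log2 fold change 4.95 ± 0.44, adjusted p = 6.78e-08), Ccl2, a monocyte chemokine (5.01 ± 1.00, adjusted p = 0.00278), and the adhesion gene Icam1 (2.50 ± 0.27, adjusted p = 1.54e-06). At 24 h 5 were higher and 1 lower, and at 72 h 0 were higher and Ace, the angiotensin-converting enzyme, was lower (-1.52 ± 0.18, adjusted p = 8.85e-07). Of 10 genes that they activate, Thbd, the thrombin receptor thrombomodulin, was the only 1 higher at 4 h (36.4 ± 4.61 CPM in CLP mice and 19.3 ± 0.90 CPM in sham mice; 0.92 ± 0.19, adjusted p = 0.00334). Entpd1, which breaks down extracellular ATP, and Cyp1b1 were higher at 24 h (1.63 ± 0.34 and 0.88 ± 0.19), and 0 of 10 passed at 72 h, when Klf2 did. Among the 13 upstream genes, 0 passed at 4, 24 or 72 h. The median log2 fold changes of the repressed genes were 1.69, 1.24 and 0.63, and those of the activated genes 0.28, 0.46 and 0.32. Which cells of the whole kidney these changes came from, that of Ace included, was not tested. Proximal tubule markers were lower in the same CLP libraries at 24 and 72 h, as given above.

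Of 10 immediate early genes tested, 6 were higher after CLP at 4 h, with Junb at 67.1 ± 22.4 CPM in CLP mice and 13.97 ± 2.12 CPM in sham mice (log2 fold change 2.26 ± 0.30, adjusted p = 2.42e-05), and 2 and 0 passed at 24 and 72 h. Of 10 glucocorticoid targets, 5, 4 and 5 were higher at 4, 24 and 72 h, including Cebpd, a C/EBP transcription factor, each time (2.28, 1.76 and 1.32). Amino acid breakdown genes linked to Klf15 were higher at 24 h in 4 of 9 tested, among them Hpd (147 ± 52.3 CPM in CLP mice and 32.3 ± 10.3 CPM in sham mice), Gpt and Prodh, while Klf15 itself did not pass, and 0 of 9 passed at 4 or 72 h. Of 10 genes of transforming growth factor beta signalling around Klf10, only Id1 passed, at 24 h (0.86 ± 0.21, adjusted p = 0.00836). Among the 11 other Klf and Sp genes tested, Klf7 was higher at 4 h (123 ± 32.7 CPM in CLP mice and 74.2 ± 4.90 CPM in sham mice; 0.72 ± 0.15, adjusted p = 0.00272) and Sp4 at 72 h (1.24 ± 0.35, adjusted p = 0.039). These lists were drawn up with earlier results of these data known.

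Klf levels in whole kidney also differed between sham-operated and healthy mice. The operation and anything else that differs between these groups cannot be told apart. Klf2 stood at 47.4, 44.7, 41.0 and 61.1 CPM at 4 h after sham operation, against 34.1, 30.2, 28.8 and 22.01 CPM in healthy mice. The groups did not overlap. The log2 fold change was 0.76 ± 0.17 (adjusted p = 0.0142, edgeR), which failed without sham replicate 4 (0.136) or healthy replicate 4 (0.0935). Klf4 had 27, 22.8, 25.7 and 27.2 CPM after sham operation, against 12.9, 18.5, 15.97 and 15.2 CPM in healthy mice, a separation without overlap that did not pass (0.72 ± 0.19, adjusted p = 0.0619). Klf6 was also apart, at 41.0 to 61.05 CPM against 29.4 to 33.6 CPM (0.64 ± 0.20, adjusted p = 0.157). Klf13 averaged 106 ± 17.8 CPM after sham operation and 66.8 ± 19.6 CPM in healthy mice (0.67 ± 0.18, adjusted p = 0.0707), and it passed without healthy replicate 1 (0.0139) or sham replicate 3 (0.0466). At 4 h 1 of 8 members passed, where 0.937% of all genes did, 3 of 8 lay above without overlap (4.27% of all genes), and 8 of 8 log2 fold changes were above 0 with a median of 0.66. Of 10 glucocorticoid targets 9 were higher in the same comparison, with a median of 1.901, among them Fkbp5 (198 ± 55.8 CPM after sham operation and 42.1 ± 7.99 CPM in healthy mice), and so was Klf9, a further family member and 1 of those targets (0.88 ± 0.15, adjusted p = 0.00133). The CLP comparison at 4 h has these sham libraries as its controls.

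At 24 and 72 h after sham operation some members stood below healthy mice. Klf6 had 22.2, 19.2, 20.1 and 20.5 CPM at 24 h and 25.4, 17.9, 22.5 and 20.4 CPM at 72 h, against 33.6, 29.4, 31.9 and 31.9 CPM in healthy mice. Neither time overlapped the healthy range, and neither passed (-0.63 ± 0.20, adjusted p = 0.0573, and -0.56 ± 0.21, adjusted p = 0.0785), although with no filter on low counts the adjusted p was 0.0163 at 24 h and 0.0372 at 72 h. Lower values without overlap were seen in 7.52% of all genes at 24 h and 8.76% at 72 h. The CLP comparisons at 24 and 72 h have these sham libraries as their controls. Klf10 had 6.82, 5.45, 4.35 and 4.83 CPM at 72 h after sham operation, against 18.8, 5.71, 16.6 and 12.5 CPM in healthy mice, where replicate 2 fell into the sham range. It passed as lower (-1.32 ± 0.40, adjusted p = 0.0428), and no longer did so without sham replicate 2 (0.0961), 3 (0.127) or 4 (0.117) or healthy replicate 1 (0.127), 3 (0.101) or 4 (0.0701), or with no filter on low counts (0.0988). At 24 h 0 of 8 members passed by edgeR, where 6.41% of all genes did. An unadjusted p under 0.05 was found for 3 members and for 3742 of 14936 genes. DESeq2 passed 1 (Klf6) and 1501 of 14936 genes. Klf10 (-0.93, adjusted p = 0.137) and Klf15 (-0.85, adjusted p = 0.129) passed without sham replicate 1 (0.0468 and 0.0375). At 72 h 1 of 8 passed, where 8.44% of all genes did (4.35% as lower). The endothelial, neutrophil and macrophage markers passed in at most 1 gene a list in each of the 3 comparisons of sham with healthy mice. Other lists moved with the lower members. At 24 h 2 of 6 smooth muscle and renin cell markers and 2 of 8 proximal tubule markers were lower, and 2 of 8 markers of loop, distal tubule and collecting duct were higher. At 72 h 2 of 6 fibroblast markers were lower, and 2 of 8 proximal tubule markers and 2 of 8 of loop, distal tubule and collecting duct were higher. Their part in the Klf values was not tested.

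In the microdissected compartments no member passed for CLP against sham at any time by edgeR. In this fit the 12 comparisons had few calls over all genes as well, except peritubular capillaries at 72 h: 0.00821%, 0.0164% and 0.0% at 4, 24 and 72 h in arterioles, 0.11%, 0.137% and 0.0343% in glomeruli, 0.0%, 0.051% and 22.3% in peritubular capillaries, and 0.0%, 0.0813% and 0.0443% in venules. In peritubular capillaries 7 members could be tested, Klf5 being too low. An unadjusted p under 0.05 was found for at most 2 members in any of the 12 comparisons. Over all genes it was found for 384 of 11772 in peritubular capillaries at 4 h and for 4344 there at 72 h. In glomeruli at 72 h, where 2 members had it, 1498 of 14586 genes did. The count over all genes in peritubular capillaries at 72 h, 2625 of 11772 genes, was 1032 with DESeq2's size factors, 650 of 21596 with no filter, 41 of 8944 in mice of the same span and 13 of 5330 in the 8 libraries alone. DESeq2 made 87 to 4017 calls over all genes in the 12 comparisons. It passed Klf5 in arterioles at 24 h beside 1496 of 12183 genes, Klf6 in glomeruli at 72 h beside 861 of 14586 genes and Klf10 in peritubular capillaries at 72 h beside 4017 of 11772 genes. Of the arteriole libraries at 24 h, 4 of 4 sham and 2 of 4 CLP libraries had no read of Klf5. Klf10 had no more than 3 counts in 4 of 4 CLP and 3 of 4 sham libraries of peritubular capillaries at 72 h.

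Klf6 in glomeruli came nearest to the whole-kidney pattern. It had 256.8, 207, 226 and 231 CPM in CLP mice at 4 h, against 192, 165, 156 and 172 CPM in sham mice. These do not overlap, as was the case for 3.02% of all genes, and the log2 fold change was 0.43 ± 0.45. At 24 h it had 124, 80.8, 156 and 130.4 CPM in CLP mice, against 75.9, 46.6, 101 and 47.3 CPM in sham mice, with 1 CLP library inside the sham range (0.86 ± 0.46, adjusted p = 0.469). At 72 h the values were 168, 122, 193 and 195 CPM, against 147, 53.6, 40.9 and 26.2 CPM (1.34 ± 0.46, adjusted p = 0.404 by edgeR and 0.0446 by DESeq2); sham replicate 1 was the only sham value above the lowest CLP value, and without it the log2 fold change was 2.09 (adjusted p = 0.181). Neutrophil markers summed to 1264 to 2598, 818 to 2428 and 3461 to 5279 CPM in glomeruli of CLP mice at 4, 24 and 72 h, against 45.1 to 219, 42.1 to 172 and 9.82 to 126 CPM in sham mice, and their part in the Klf6 values was not tested. The endothelial markers summed to 3086 to 5940 CPM in CLP glomeruli at 4 h and 5486 to 7607 CPM in sham glomeruli.

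Klf2 in glomeruli stood at 319.5, 278, 358 and 313 CPM in CLP mice at 4 h, against 291, 228, 259 and 477 CPM in sham mice, and at 72 h at 134, 401, 174 and 200.3 CPM, against 172, 128, 128 and 201 CPM. In arterioles Klf2 had 512, 441, 299 and 332 CPM in CLP mice at 4 h, against 747, 334, 339 and 402 CPM in sham mice, and 175, 367, 322 and 252 CPM at 72 h, against 133, 165, 354 and 341 CPM. The groups overlapped in all of these. In venules Klf2 was low at 72 h in both groups, with 12.8, 0.23, 9.34 and 18.3 CPM in CLP mice and 37.3, 0.0, 23.1 and 9.22 CPM in sham mice.

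Klf13 had 452, 235, 239 and 227 CPM in peritubular capillaries of CLP mice at 4 h, against 198, 4.07, 136 and 168 CPM in sham mice, and in venules 226, 268, 205 and 312 CPM against 151, 131, 162 and 200.5 CPM. Both lay above sham without overlap, as did 2.14% and 1.84% of all genes. Klf5 did so in arterioles at 4 h, with 56.1, 17.2, 35.9 and 8.35 CPM in CLP mice, against 0.14 to 0.25 CPM in sham mice, where no library had more than 3 counts (1.86% of all genes). At 72 h Klf13 in peritubular capillaries was at 0.0, 49.3, 0.0 and 0.0 CPM in CLP mice, against 14.2, 94.95, 226 and 102 CPM in sham mice (adjusted p = 0.109). In that comparison the median log2 fold change over all genes was -1.28 and that of the 7 members -2.12, so the members have to be read against a shift of the whole table. Klf13 passed there without CLP replicate 2 and Klf3 without CLP replicate 4, and each of these is the only CLP library with reads of that gene. The CLP libraries there had 4.77 to 603 CPM of endothelial markers, against 695 to 1001 CPM in sham mice.

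**Figure D4:**
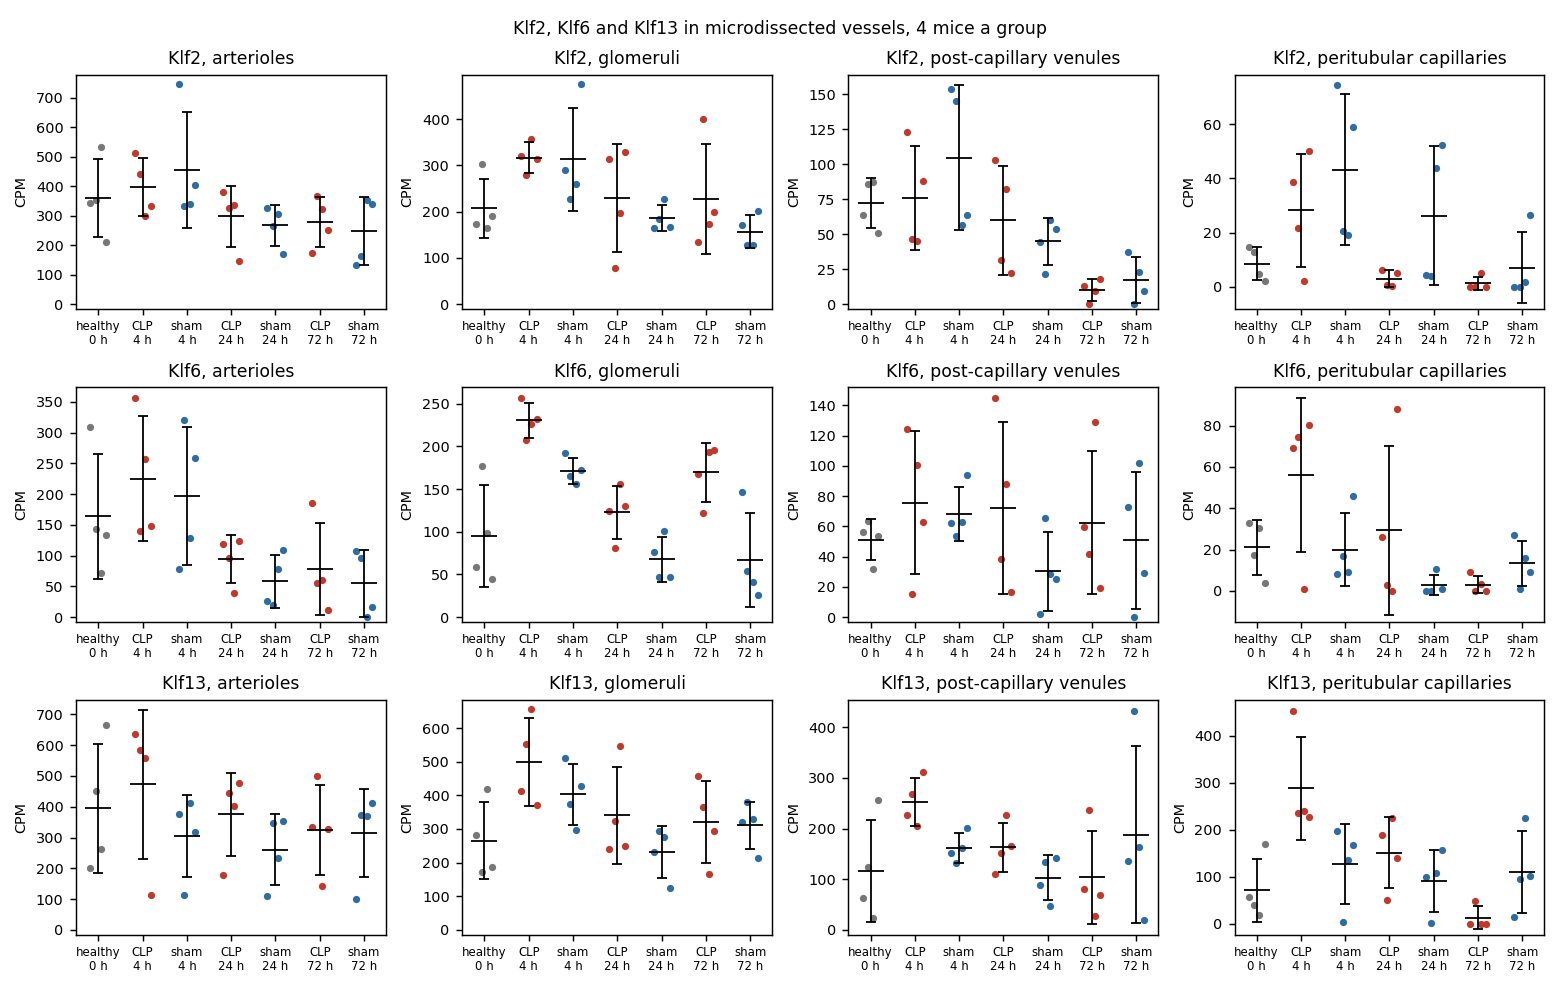
Klf2, Klf6 and Klf13 in CPM in the 4 microdissected compartments, by group. Points are libraries and bars the mean with SD over 4 mice; CLP is left of sham at each time, and Klf6 in glomeruli at 4 h lies at 207 to 256.8 CPM in CLP mice and 156 to 192 CPM in sham mice.

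Many of the microdissected values rest on few reads. Klf5 had no more than 3 counts in 25 of 28 peritubular capillary libraries, 17 of 28 arteriole libraries, 16 of 28 venule libraries and 13 of 28 glomerular libraries, and Klf10 and Klf15 in 14 and 11 of 28 peritubular capillary libraries. Klf2, Klf4, Klf6 and Klf13 had more than 3 counts in each of the 28 arteriole and 28 glomerular libraries. When the 4 microdissected libraries of each mouse were summed, 0 of 8 members passed at 4, 24 or 72 h, where 0.0832%, 0.541% and 0.428% of 16834 genes did. By edgeR 0, 2 and 1 of the members had an unadjusted p under 0.05, beside 924, 2174 and 2419 of the 16834 genes. DESeq2 passed 0 members as well, with 295, 1191 and 1315 genes called in all. Klf6 in these sums had 109, 59.2, 68.2 and 103 CPM in CLP mice at 24 h, against 27.5, 43.0, 55.8 and 41.3 CPM in sham mice, without overlap (2.3% of all genes). Its log2 fold changes were 0.40, 1.02 and 0.91 at 4, 24 and 72 h (adjusted p = 1.0, 0.28 and 0.269), those of Klf13 0.57, 0.74 and -0.14 and those of Klf2 -0.25, 0.54 and 0.43. With peritubular capillaries left out of the sums, a choice made after seeing the data, again 0 of 8 passed.

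Differences of the CLP change between the 4 compartments were tested directly by edgeR. At 4, 24 or 72 h 0 of 8 members passed, where 0.021%, 0.161% and 1.48% of all genes did. An unadjusted p under 0.05 was found for 0, 0 and 1 members, beside 830 of 14272, 686 of 13635 and 1643 of 13475 genes. The smallest adjusted p was 0.249, for Klf13 at 72 h, and leaving out CLP replicate 2 or 4 of 72 h made Klf13 or Klf3 pass. The whole-kidney changes of Klf2, Klf6 and Klf13 are thus not placed in any compartment by these data. For sham operation at 4 h against healthy mice, 0 members passed in arterioles (0.0% of all genes), glomeruli (0.00686%), peritubular capillaries (0.0%) or venules (0.0%) by edgeR. In all 1 member had an unadjusted p under 0.05, in arterioles, where 668 of 12183 genes did. DESeq2 passed 0 members too, and 217, 310, 95 and 244 genes in the same order of compartments. Without overlap, Klf4 in glomeruli was at 80.1, 128, 88.01 and 104 CPM after sham operation, against 60.9, 63.1, 55.6 and 35.1 CPM in healthy mice (1.78% of all genes), and Klf2 in peritubular capillaries at 74.2, 20.5, 18.98 and 59.04 CPM, against 14.7, 13, 4.62 and 2.10 CPM (1.25%).

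Across the 28 whole-kidney libraries the level of Klf6 followed that of Klf13 (Pearson r = 0.85, log2 CPM), Klf15 (0.77) and Klf10 (0.72), while the lowest coefficient among members was -0.17, between Klf4 and Klf10. These are descriptions over libraries that share 7 groups and 3 times, so that any gene that is high at 4 h scores well. Of 14896 genes, those most like Klf13 were Glul, the glutamine synthetase (0.93), and the metallothioneins Mt1 (0.93) and Mt2 (0.91). For Klf6 they were Mcl1, a survival factor of the BCL2 family (0.92), Mbd1 (0.91) and Jmjd1c (0.91). For Klf2 they were the clock and glucocorticoid-responsive gene Per1 (0.81), Rgcc (0.78) and Sla (0.77). Klf10 was nearest to Plat (0.89), Klf15 to the taurine transporter Slc6a6 (0.91), Klf5 to Crebrf (0.83), Klf3 to Otud7b (0.83) and Klf4 to Camsap2 (0.77).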

How the data were processed

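The deposited file is a table of raw counts per gene and library, unnormalised, for 140 libraries. Tools named, per the submitters' processing notes, are STAR 2.7, HTSeq 0.13, featureCounts, SAMtools 1.9, MultiQC 1.7 and FastQC 0.11.8, and builds named are GRCm39 and GRCm38.p6. Which build underlies the counts, whether strand was used and how duplicates were treated are not given in the sources used here. Libraries were Lexogen QuantSeq, per the labels, so a count marks a transcript's 3′ end and carries no length. Groups follow the labels; the table's own hours differ from them for the 20 healthy libraries, which the labels put at 0 h.

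Each compartment was fitted over its 28 libraries in edgeR 4.0.16 (R 4.3.3) with TMM scaling, genes kept by filterByExpr and the robust quasi-likelihood F test, and p-values were adjusted over all genes tested (Benjamini-Hochberg, threshold 0.05). Errors of log2 fold changes are SEs from the F statistic. Healthy compartments and the compartment differences were fitted with mouse as a block, since the labels give 4 compartments to the same mouse number; these have a scale of their own. Correlations used log2 CPM with a prior count of 2. DESeq2 1.42.0, other scaling, no filter, smaller sets of libraries, the replicate block and each library left out were the alternatives. The fit was tested on simulated data. No identical libraries were found. The labels number biological replicates within a group. Counts without molecular identifiers limit precision beyond counting error, and 3 counts in a library was taken as the floor.

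All 8 members were described in every comparison. From each pathway list the genes named were those past the threshold with the largest changes, up to 3 in a whole-kidney CLP comparison and 2 in another CLP comparison, and for each member the 3 genes of highest correlation; names outside this rule were chosen after their values were seen. The members and lists were chosen with earlier results of these data known. Gene positions are from GENCODE M21, and promoter sequences are from RefSeq.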

Additional observations from a re-analysis of the deposited data

Results flagged for a closer look

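Among 272 sets of 4 libraries (a member in a compartment and group), 33 had 1 library apart from the other 3 by Dixon's criterion. The criterion marks about 1 in 20 by chance only where values are normally distributed. Many flagged sets hold libraries with no more than 3 counts, so the number flagged cannot be set against that rate. In whole kidney there was 1, Klf3 at 4 h after sham operation, where 51.8 CPM stood above 47.5 to 47.8 CPM. The other values below are the CPM of the library that stood apart.

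Klf10 had such a library in arterioles of CLP mice at 24 h (14.7) and 72 h (40.4), of sham mice at 4 h (17.2) and 24 h (64.8) and of healthy mice (17.4), and in peritubular capillaries of CLP mice at 24 h (49.6), sham mice at 24 h (8.72) and 72 h (12.6) and healthy mice (4.53). In these sets 1 to 3 libraries had no more than 3 counts. Klf13 stood low in 1 arteriole library of CLP mice at 4 h (114.6) and of sham mice at 72 h (100.7), and high in 1 peritubular capillary library of CLP mice at 4 h (452) and 72 h (49.3). Klf15 stood apart in glomeruli of healthy mice (11.3) and in peritubular capillaries of CLP mice at 24 h (2.77) and 72 h (20.6).

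Klf2 stood high in 1 arteriole library of sham mice at 4 h (747) and in 1 peritubular capillary library of CLP mice (5.03) and of sham mice (26.6) at 72 h. Klf3 did so in glomeruli of healthy mice (285.1) and in peritubular capillaries of CLP mice at 72 h (185), and Klf4 in peritubular capillaries of CLP mice at 72 h (128) and sham mice at 24 h (241), while it was low in glomeruli of sham mice at 24 h (57.7). Klf5 stood apart in arterioles of CLP mice at 72 h (11.6), in glomeruli of CLP mice at 24 h (5.88) and sham mice at 4 h (14.97), in peritubular capillaries of sham mice at 4 h (1.67) and in venules of CLP (82.7) and sham mice (23.3) at 4 h. Klf6 was low in 1 peritubular capillary library of CLP mice at 4 h (0.84), against 69.0 to 80.3 in the other 3, and high in 1 of sham mice at 24 h (10.4).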

How the results depend on the processing

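Klf2 in whole kidney at 72 h and Klf2 in healthy arterioles and peritubular capillaries passed under every alternative run. The number of members passing at 4 h in whole kidney, 2 for CLP against sham, was 1 in the 8 libraries alone and 0 in mice of the same span (Klf6 0.0766 and Klf13 0.0506, adjusted p), and 0 to 2 with a library left out. At 24 h it was 1, 0 in the 8 libraries alone and 0 to 2 with a library left out. For sham against healthy at 4 h it was 1, but 3 with no filter, 3 by DESeq2 and 0 to 2 with a library left out; at 24 h it was 0, but 1 with no filter, 1 by DESeq2 and 0 to 2 with a library left out; at 72 h it was 1 (Klf10), 0 to 1 with a library left out, and with no filter still 1 but Klf6 (0.0372) in place of Klf10 (0.0988). DESeq2 gave 1 in place of 0 in arterioles at 24 h and in glomeruli and peritubular capillaries at 72 h. With a mouse or library left out, the count was 1 to 3 in healthy arterioles (3 without mouse 4, with Klf4) and 0 to 1 in peritubular capillaries at 72 h, in the difference between compartments at 72 h and in the difference between times.

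Samples of the same replicate number in different groups come from different mice. In whole kidney 0, 3 and 2 of 4 such pairs of CLP and sham libraries at 4, 24 and 72 h correlated over 0.1. Of these pairs 0, 3 and 2 correlated best with their own number, and what they share was not tested. With the replicate block 2 members passed for sham against healthy at 4 h, 2 at 24 h and 2 at 72 h, and 1 for the difference between times (Klf4, adjusted p = 0.0273), and the count of members changed in no other comparison. With it the calls over all genes in peritubular capillaries at 72 h numbered 841, against 2625 without. For sham against healthy in whole kidney they numbered 1716 at 24 h and 2110 at 72 h, against 958 and 1260 without.

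Log2 fold changes near 0 changed sign when a library was left out: for CLP in whole kidney Klf2 (-0.0706 to 0.16), Klf5 (-0.0694 to 0.17) and Klf10 (-0.21 to 0.38) at 4 h, Klf5 at 24 h (-0.48 to 0.0898) and Klf10 at 72 h (-0.19 to 0.0524); for sham against healthy Klf10 at 4 h (-0.0124 to 0.42) and Klf13 at 24 h (-0.17 to 0.15) and 72 h (-0.17 to 0.15); and in the summed compartments Klf2 at 4 h (-0.44 to 0.0778) and Klf13 at 72 h (-0.39 to 0.0822). Klf5, Klf10 and Klf15 were at or under the floor in some libraries of every microdissected compartment, and in no whole-kidney library. Library totals ran from 4.24 M to 18.3 M in peritubular capillaries and from 4.78 M to 16.3 M in whole kidney. The cause of these low counts was not tested. Fewer libraries or genes enter most of the alternative fits. Otherwise the cause of the changed results was not tested.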
